A study of Hordeum vulgare with 28 samples.

Results

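Barley leaves fed on by the two-spotted spider mite (TSSM, *Tetranychus urticae*, a generalist herbivore) for 24 h were set directly against leaves wounded with sandpaper 24 h before harvest. All 4 libraries titled as TSSM-infested at 24 h (T24) and all 4 titled as wounded at 24 h (W24) were used, 8 of the 28 libraries of the series, and the other libraries served only to share the estimate of spread and to place the called genes. Each T24 library came from a section of the 5th leaf of a 30-day-old plant of cultivar Morex on which 200 adult female mites fed between wax barriers. Each W24 library came from the same kind of section, wounded once with 60 grit sandpaper, which was rubbed on the leaf by the labels' account and pressed against it by the study's methods. Control sections (C) had the barriers and neither treatment. Further groups were wounded sections at 2 h (W2), sections with 400 TSSM at 2 h (T2), and sections on which the grass specialist *Oligonychus pratensis* had fed for 24 h (O24). Each library was made from a separate leaf enclosure, and all sections were harvested at 1 time of day. The TSSM, unlike *O. pratensis*, had been kept on bean before they were acclimated to barley. TSSM feeding went on for the whole 24 h whereas wounding was a single event, so the agent and the duration of damage cannot be told apart.

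Spider mites pierce single mesophyll cells with their stylets and empty them, leaving the epidermis largely in place, and their saliva delivers proteins into the leaf. Sandpaper damages the tissue mechanically and delivers no saliva. In plants both kinds of damage switch on jasmonate synthesis from membrane lipids, which releases defence genes from repression by JAZ proteins; wound responses are typically fast and transient, while a feeding animal renews the stimulus.

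The files name genes by barley locus only. Where a barley gene is the reciprocal best match of an Arabidopsis gene in the study's match table, held here in part, it is called the counterpart of that gene, and roles given below are those known in Arabidopsis. Levels are reads per M assigned reads (CPM, where M stands for the prefix mega), which are not corrected for gene length. Groups are compared within a gene. Where genes are binned, summed or ranked by CPM, the level also reflects gene length. A gene was called when its Benjamini-Hochberg adjusted *P* in edgeR's quasi-likelihood test was under 0.01 and its log2 fold change (log2FC) was beyond 1 in size. No sequence is shown, since no sequence for these loci was used here.

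The T24 libraries held 13.7 M to 20.7 M assigned reads and the W24 libraries 21.6 M to 31.4 M. Mean totals were 18.7 M ± 3.37 M in T24 and 25.97 M ± 4.03 M in W24 (SD, n = 4 each), a difference whose exact two-sided permutation *P* was 0.0286, the smallest that 4 against 4 allows. Whether depth has a part in the differences given here was not tested. T24 replicate 3 was the shallowest. The leaf identity of the samples was plain in both groups: the counterparts of the antenna genes *LHCB3* and *LHCB2.3* stood above 1000 CPM in every T24, W24 and C library, and the 3 marker genes of flowers, pollen and meristems together reached 0.394 to 0.532 CPM in T24, 0.623 to 1.02 CPM in W24 and 0.622 to 0.965 CPM in C.

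Mite-fed leaves differed from wounded leaves at 24 h in 2357 of 16948 tested genes (13.9%). Of these, 1502 (8.86%) were higher in T24 and 855 (5.04%) were lower, so that 63.7% of the calls were in the direction of higher levels under mites. The median log2FC over all tested genes was -0.00. Large differences lay mostly on the higher side: 380 genes had a log2FC over 3 and 116 over 5, against 96 below -3 and 20 below -5. The calls include 315 higher and 88 lower genes with a mean under 0.1 CPM in C. These could pass the filter on low counts only through a treated group, and how far that sets the balance was not tested. The 4 T24 values and the 4 W24 values did not overlap for 1475 of the 1502 higher genes and for 783 of the 855 lower genes, against 29.9% (higher) and 16.6% (lower) of all tested genes. These CPM values are scaled by library totals alone, where the median log2FC of all tested genes was 0.10. How far this scaling sets the difference between the higher and lower shares was not tested. The calls were made on these same libraries, so little overlap is largely built in and is given as a description only.

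**Figure D1:**
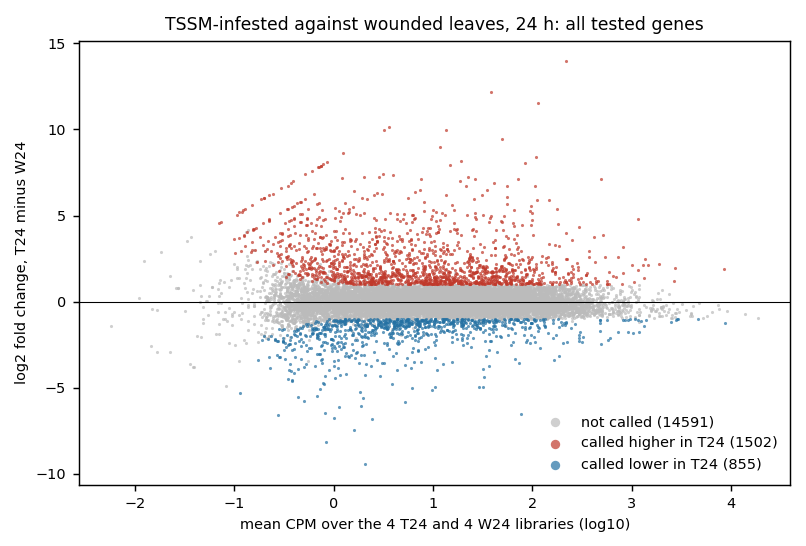
Log2 fold change of T24 minus W24 (y axis) against the mean CPM over the 8 libraries on a log10 scale (x axis) for the 16948 tested genes, with called genes in red (1502 higher in T24) and blue (855 lower in T24). The genes called higher reach further from 0 than those called lower, and the top red point is MLOC_60765 at 13.98.

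Among genes well expressed in undisturbed leaves, the balance of calls differed with level. Of the 7378 genes between 10 and 100 CPM in the C libraries, which stand outside this contrast, 3.71% were called higher in T24 and 2.86% lower. Of the 107 genes over 1000 CPM in C, 1.87% were called higher and 13.1% lower, with a median log2FC of -0.59. A further 674 tested genes had a mean under 0.1 CPM in C and could pass the filter on low counts only through a treated group, so the 46.7% of them called higher is largely set by that filter and no comparison is drawn from it.

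The position of the control leaves differed between the called sets. The 1502 higher genes had a median log2FC of 2.41 in T24 against C and of 0.44 in W24 against C. The 855 lower genes had a median of -1.11 in T24 against C and of 0.34 in W24 against C. These values share their T24 or W24 libraries with the comparison that chose the genes, and are given side by side as a description. Averaged over the higher set, log2 CPM was 3.17, 3.43, 3.34 and 3.70 in T24 replicates 1 to 4, and 1.28, 1.22, 1.31 and 1.36 in the W24 replicates. Replicate 4 of T24 stood highest, and for the lower set it stood lowest, at 1.26 against 1.47 to 1.58 in the other T24 libraries. Without it, 1969 genes were called.

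Among jasmonate genes, those for a synthesis enzyme and a repressor differed widely. Of 6 tested members, 2 were called higher and none lower, against 8.86% and 5.04% of all tested genes. The list median log2FC was 0.17. The counterpart of *AOS* (MLOC_21933), whose enzyme makes allene oxide at the committed step of jasmonate synthesis, had 288, 345, 446 and 324 CPM in T24, against 17.2, 17.01, 13.1 and 9.82 CPM in W24 and 0.625 to 3.65 CPM in C. Its mean CPM was 24.6-fold higher in mite-fed than in wounded leaves, while both groups stood above every control library. The fitted log2FC, which also uses scaling factors, was 4.52 ± 0.52 (SE, adjusted *P* = 1.71e-07). Each SE of a log2FC given here was derived from the test, as the log2FC's size over the square root of its F statistic. The counterpart of *JAZ1* (MLOC_12120), a repressor that jasmonate itself induces, had 227, 275, 292 and 323 CPM in T24, against 65.4, 62.8, 69.9 and 61.7 CPM in W24 and 16.4 to 27.4 CPM in C (log2FC 2.00 ± 0.23; adjusted *P* = 1.46e-07). Again the 3 groups did not overlap. The other jasmonate members did not follow: *ACX4*, a peroxisomal acyl-CoA oxidase, had a log2FC of -0.52 (adjusted *P* = 6.51e-06, below the fold needed for a call), and the counterparts of *JAM2*, *ST2A* and *ECH2* lay between 0.00 and 0.27.

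Genes for proteins that act on attackers were mostly higher or not called. Of 8 tested defence protein genes 4 were called higher and 1 lower, against 8.86% and 5.04% of all tested genes. Their median log2FC was 1.06 (0.16 over 9 members with no filter on low counts). The most abundant was the counterpart of a potato inhibitor I type serine protease inhibitor gene (MLOC_2643; such proteins block digestive proteases), with 925, 1320, 2204 and 1457 CPM in T24, against 242, 177, 90.9 and 93.8 CPM in W24 and 0.832 to 7.90 CPM in C. This was a log2FC of 3.17 ± 0.61 (adjusted *P* = 1.46e-04), and the lowest T24 library stood well above the highest W24 library. The counterpart of the beta-1,3-glucanase gene *BG3* (MLOC_13908) had 54.5, 90.1, 67.9 and 102 CPM in T24, against 4.40, 7.12, 7.55 and 5.39 CPM in W24 (log2FC 3.59 ± 0.20; adjusted *P* = 8.29e-13). That of the class IV chitinase gene *EP3* (MLOC_13056) had 5.81, 5.95, 6.08 and 10.8 CPM in T24, against 0.468, 0.316, 1.11 and 0.255 CPM in W24 (log2FC 3.69 ± 0.40). Both were at or below 0.522 CPM in every control library. A PR-1-like gene (MLOC_12581) was also called higher, at a log2FC of 1.94. The peroxidase gene *PRX25* (MLOC_12821) was the member called lower, with 1.77 to 3.29 CPM in T24 and 4.36 to 5.50 CPM in W24 (log2FC -1.04). A further member, the counterpart of the wound ribonuclease gene *RNS1*, had a log2FC of 0.17 (adjusted *P* = 0.630), and was at a log2FC of 3.53 in T24 against C and of 3.36 in W24 against C. The callose synthase gene *GSL5* had a log2FC of -0.51 (adjusted *P* = 1.18e-04), short of a call, and a thaumatin-like gene -1.14 (adjusted *P* = 0.0886).

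Of 11 tested immune signalling genes, 4 were called higher and none lower, against 8.86% and 5.04% of all tested genes. Their median log2FC was 0.79 (0.46 over 13 members with no filter on low counts). The counterpart of *BCS1* (MLOC_1081), a mitochondrial AAA-ATPase induced by salicylic acid, had 12.7, 16.98, 12.6 and 18.6 CPM in T24, against 0.740, 0.593, 1.11 and 0.478 CPM in W24 (20.8-fold by mean CPM, fitted log2FC 4.30 ± 0.26). Those of *TET8* (MLOC_14959), a tetraspanin, and of *MAPKKK5* (MLOC_20210), a kinase upstream of MPK3, had log2FC values of 1.74 ± 0.30 and 1.47 ± 0.09. *MAPKKK5* was steady within groups, at 53.5 to 71.2 CPM in T24 and 19.6 to 20.9 CPM in W24 (W24 against C, log2FC 0.08). The counterpart of *BIR1* (MLOC_2655), a receptor-like kinase that restrains immune signalling, was also higher (log2FC 1.09 ± 0.13). *PAD4*, *MPK3* and *PBS1* passed the adjusted *P* at log2FC values of 0.79, 0.91 and 0.47, and the metalloproteinase gene *AT3-MMP* (MLOC_15950) at -0.997 (adjusted *P* = 0.00153), all short of a call. A receptor-like kinase gene outside the list, the counterpart of *RLK1* (MLOC_13365, AT5G60900), had 3.69, 4.55, 2.93 and 10.4 CPM in T24, against 0.0779, 0.158, 0.695 and 0.191 CPM in W24 (log2FC 4.22 ± 0.57).

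**Figure D2:**
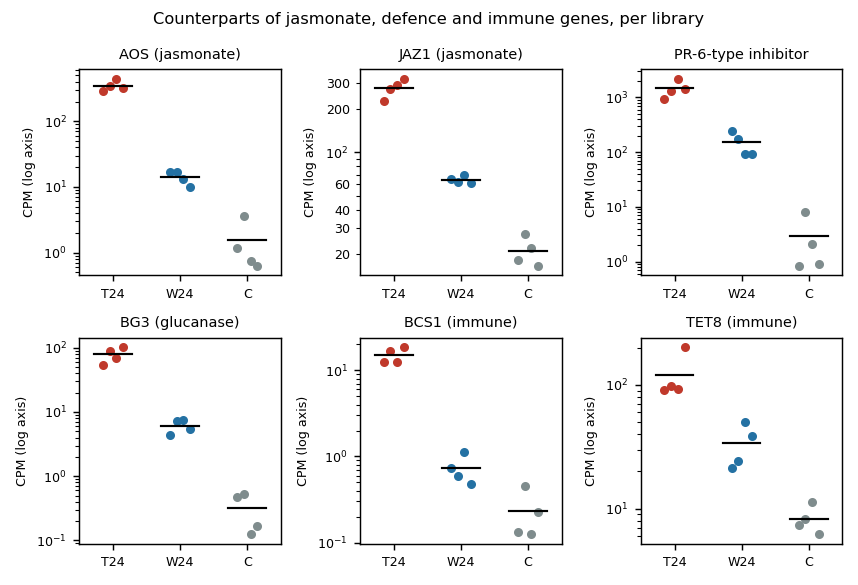
CPM on log axes in each T24, W24 and C library (points; bar, mean of 4) for the counterparts of *AOS*, *JAZ1*, the inhibitor gene, *BG3*, *BCS1* and *TET8*. In each panel all T24 points lie above all W24 points, and for *AOS* the group means are 351, 14.3 and 1.55 CPM.

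Terpene synthases make the volatile and stored terpenoids of grasses, and the 3 terpene synthase loci that the study's text names were all called higher in T24. MLOC_13618 had 5.91, 15.1, 9.81 and 13.8 CPM in T24, against 0.117, 0.0791, 0.232 and 0.191 CPM in W24 (log2FC 6.03 ± 0.43; adjusted *P* = 4.32e-11). MLOC_56812 had 399 reads over the T24 libraries and 3 over the W24 libraries, a depth-scaled ratio of 185 with a 95% counting interval from 62.8 to 899.5. MLOC_76989 had 176 reads over the T24 libraries and none in any W24 library, at least 81.5-fold higher when W24 is set at 3 reads over the group. The study singled these loci out from the same libraries, so their direction is not independent evidence. Of 7 tested members of the terpenoid list, which holds enzymes for precursors, sterols and carotenoids and 1 terpene synthase, none was called (6 at an unadjusted *P* under 0.05, and 0 called by DESeq2), and 4 passed the adjusted *P* on the lower side, among them the farnesyl diphosphate synthase gene *FPS1* at -0.89 and the linalool synthase gene *TPS14* at -0.51.

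Of 6 tested phenylpropanoid genes 1 was called higher and 1 lower, against 8.86% and 5.04% of all tested genes. Of 6 amino acid breakdown genes 1 was called higher and none lower. With so few calls these counts are not read as a result about either list. The phenylpropanoid members *ALDH2C4* (log2FC 0.91, adjusted *P* = 1.16e-05) and *TT7* (log2FC -1.53, adjusted *P* = 0.0706) were not called. Among 6 phenylpropanoid genes, that of the first enzyme of the shikimate pathway (DAHP synthase, MLOC_17364) was higher, at 424, 581, 517 and 569 CPM in T24 and 172, 177, 157 and 165 CPM in W24 (log2FC 1.53 ± 0.16). The W24 values lay below all C values (208 to 238 CPM). The monolignol glucosidase gene *BGLU46* (MLOC_11508) was lower, at 10.3 to 14.8 CPM in T24 and 23.8 to 37.4 CPM in W24 (log2FC -1.34). An aromatic amino acid decarboxylase family gene, the counterpart of *AAS* (MLOC_18474), was the only one of 6 amino acid breakdown members called, with 5.57, 20.7, 6.66 and 19.9 CPM in T24, against 0.662, 1.11, 0.972 and 1.12 CPM in W24 (log2FC 3.67 ± 0.36). Its level in O24 was 189 to 312 CPM.

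Protein folding genes of the endoplasmic reticulum were higher in T24. Of 10 tested members of the heat shock and unfolded protein list, 6 were called higher and 2 lower, against 8.86% and 5.04% of all tested genes. The list median was 1.16 (0.45 over 12 members with no filter on low counts). All 6 that were higher act in or from the endoplasmic reticulum, where secreted proteins fold. The calnexin gene *CNX1* (MLOC_2075), whose product holds unfinished glycoproteins, had 472, 504, 539 and 679 CPM in T24, against 149, 158, 162 and 162 CPM in W24 and 102 to 133 CPM in C (log2FC 1.69 ± 0.12; adjusted *P* = 3.40e-11). *bZIP60* (MLOC_22013), the transcription factor that drives the unfolded protein response, had 69.0, 95.2, 82.9 and 98.5 CPM in T24, against 26.7, 27.8, 36.5 and 27.7 CPM in W24 (log2FC 1.44 ± 0.13). In W24 it was at its control level (W24 against C, log2FC -0.00). *SDF2* (MLOC_13440) and the DnaJ co-chaperone gene *ERDJ3B* (MLOC_13401) followed at 1.42 ± 0.12 and 1.37 ± 0.12. The other members of the endoplasmic reticulum, named here after their values were seen, were the calreticulin gene *CRT1* (1.33 ± 0.32) and the disulfide isomerase gene *UNE5* (1.001 ± 0.14, at the edge of a call). The 2 lower members were the small heat shock protein gene *HSP17.6II* (MLOC_32229, -2.18 ± 0.63) and *MBF1C* (MLOC_13045, -1.61 ± 0.49), which encodes a transcriptional coactivator of heat responses. Their log2FC values in W24 against C were 3.78 and 2.28.

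Ribosomal protein genes differed by compartment. Every one of the 16 tested genes for cytosolic ribosomal proteins had a positive log2FC, from 0.50 to 1.12, and 14 passed the adjusted *P*, but only *RPL35AC* (MLOC_23200; 1.12 ± 0.23) passed the fold needed for a call. The summed level of the list was 2163 to 3141 CPM in T24 and 1064 to 1743 CPM in W24. All 8 genes for plastid ribosomal proteins passed the adjusted *P* on the lower side, from -1.12 to -0.57, and 4 were called lower. The lowest was *PRPL24* (MLOC_11884), with 71.3, 93.0, 71.5 and 46.0 CPM in T24, against 91.6, 176, 141 and 170 CPM in W24 (log2FC -1.12 ± 0.27), where the highest T24 library reached into the W24 range. Among all tested genes, 21.2% passed the adjusted *P* on the higher side and 17.4% on the lower side. Cytosolic ribosomal proteins are encoded by small families of near-identical copies, so reads may be split or lost between copies when only unique alignments are counted.

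Nuclear photosynthesis genes lay on the lower side. All 23 tested members had a negative log2FC (median -0.71, from -1.17 to -0.13) and 16 passed the adjusted *P*, while 2 passed the fold. Among all tested genes, 17.4% passed the adjusted *P* on the lower side and 5.04% were called lower. The photosystem II antenna gene *LHCB3* (MLOC_17002) had 1778, 2033, 1619 and 1050 CPM in T24, against 3994, 3140, 3516 and 2965 CPM in W24 and 3544 to 4576 CPM in C (log2FC -1.17 ± 0.22; adjusted *P* = 8.50e-05). *LHCB2.3* (MLOC_22471) had 3394, 4015, 3457 and 2185 CPM in T24, against 6635, 5351, 6508 and 6004 CPM in W24 (log2FC -1.004 ± 0.21). T24 replicate 4 was lowest for both, and the *LHCB2.3* value, close to the fold needed, lost its call in 8 of 19 alternative settings, among them without that library (log2FC -0.85). Antenna genes also come in near-identical copies. The whole list summed to 9677 to 14221 CPM in T24 and 18116 to 21397 CPM in W24. Of 51 tested plastid-encoded genes none was called (1 at an unadjusted *P* under 0.05, and 0 by DESeq2), and their median was 0.07, or -0.18 without T24 replicate 2, although poly(A) selection recovers these transcripts poorly. In bulk leaf tissue, fewer mesophyll cells and less of these transcripts per cell cannot be told apart.

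**Figure D3:**
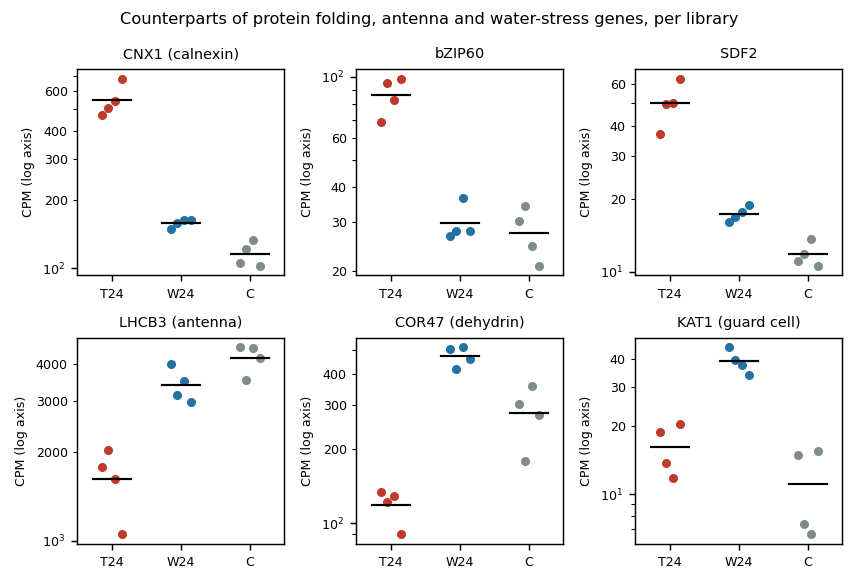
CPM on log axes in each T24, W24 and C library (points; bar, mean of 4) for the counterparts of *CNX1*, *bZIP60*, *SDF2*, *LHCB3*, *COR47* and *KAT1*. The folding genes are high in T24 alone, *LHCB3* is low in T24 alone, and *COR47* and *KAT1* are highest in W24, where their means are 476 and 38.9 CPM.

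Abscisic acid mediates responses to water loss. Of 5 tested members of its list, 2 were called lower in T24 and none higher, against 5.04% and 8.86% of all tested genes. The list median log2FC was -0.24. With no filter on low counts it was 0 over 7 members, 3 of them above 0 and 3 below. The other tested members, *OST1*, *ABA3* and *GOLS1*, had log2FC values of -0.24, 0.17 and 0.52 and were not called. The dehydrin gene *COR47* (MLOC_14884) had 133, 122, 129 and 90.0 CPM in T24, against 509, 420, 516 and 460 CPM in W24 and 179 to 357 CPM in C (log2FC -2.11 ± 0.24; adjusted *P* = 1.06e-07). Mite-fed leaves were thus below, and wounded leaves above, all 4 controls. *ABF3* (MLOC_20326), a transcription factor of abscisic acid responses, had 1.28 to 2.03 CPM in T24, 3.23 to 3.48 CPM in W24 and 0.580 to 1.27 CPM in C (log2FC -1.03 ± 0.25). The guard cell potassium channel gene *KAT1* (MLOC_10111) had 18.97, 13.7, 11.8 and 20.6 CPM in T24, against 44.9, 39.5, 37.4 and 33.9 CPM in W24 and 6.63 to 15.5 CPM in C (log2FC -1.36 ± 0.31).

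*KAT1* belongs to the 4 tested guard cell and epidermis markers, all of which had a negative log2FC. Of these, 2 were called lower, against 5.04% of all tested genes. With no filter on low counts 1 of 5 markers lay above 0, and the median was -1.37, against -1.74 with the filter. The sum of that list was 15.8 to 24.6 CPM in T24, 44.6 to 53.3 CPM in W24 and 15.2 to 30.9 CPM in C. *KAT1* alone averaged 16.3, 38.9 and 11.1 CPM in these groups. It makes up most of the W24 sum (mean 48.4 CPM), so the sum largely repeats that gene. The other called member, the wax synthesis gene *CER1* (MLOC_11693), rested on 3 reads over T24 and 42 over W24, a depth-scaled ratio of W24 to T24 of 10.1 (95% counting interval 3.22 to 50.8). The guard cell anion channel gene *ALMT12* and the cuticle gene *LTPG1* had log2FC values of -2.13 (adjusted *P* = 0.0700) and -0.82. What part the share of epidermal RNA has in the genes higher in W24 was not tested.

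Among the largest negative differences of genes with a counterpart, the sugar transporter gene *SWEET1* (MLOC_10342, AT1G21460) had 0.248 to 0.394 CPM in T24, 1.18 to 4.64 CPM in W24 and 1.28 to 3.06 CPM in C (log2FC -3.10 ± 0.49). MLOC_18081 (AT1G13930) was the most abundant of them, at 158, 149, 171 and 165 CPM in T24, against 745, 810, 900 and 850 CPM in W24 and 278 to 327 CPM in C (log2FC -2.46 ± 0.12; adjusted *P* = 7.16e-14). Its T24 values lay below and its W24 values above all controls, with little spread within a group. *PILS3* (MLOC_24846, AT1G76520), an auxin carrier-like gene, had 0.198 to 0.732 CPM in T24, 1.66 to 2.87 CPM in W24 and 0 to 0.209 CPM in C (log2FC -2.39 ± 0.46). In T24 against C its log2FC was 2.48 (adjusted *P* = 0.00519). *MYB112* (MLOC_17928, AT1G48000), a MYB family transcription factor gene, had 0.296 to 1.04 CPM in T24, 2.69 to 4.26 CPM in W24 and 0.312 to 0.663 CPM in C (log2FC -2.35 ± 0.43). MLOC_11246 (AT2G28400), MLOC_21153 (AT2G23060) and the receptor kinase gene *SRF8* (MLOC_15779, AT4G22130) had log2FC values of -2.42, -2.32 and -2.04. On the positive side MLOC_20016 (AT3G25400) had a log2FC of 3.54 ± 0.28, with 6.50 to 16.3 CPM in T24 and 0.701 to 1.07 CPM in W24.

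Lists of growth, storage and timing genes held 5 calls, all higher in T24. Among all tested genes, 8.86% were called higher and 5.04% lower. Of 7 growth hormone genes the auxin-responsive *SAUR36* (MLOC_18522, 2.25 ± 0.49) and the gibberellin synthesis gene *GA20OX1* (MLOC_16059, 1.43 ± 0.38) were higher in T24. For *GA20OX1* T24 was at 3.01 to 6.52 CPM, W24 at 0.926 to 2.42 CPM and C at 1.22 to 5.88 CPM, so the T24 and W24 values did not overlap and the control range covered part of each. Of 9 starch and sugar genes the starch synthase gene *SS2* (MLOC_15538, 1.15 ± 0.16) and the glucan dikinase gene *GWD1* (MLOC_14775, 1.19 ± 0.25) were higher. *SUS4*, *ERDL6* and *FINS1* of that list passed the adjusted *P* on the lower side, at -0.61, -0.69 and -0.69, and the list median was -0.10. *SS2* hardly varied, at 82.1 to 85.0 CPM in T24 and 31.5 to 38.2 CPM in W24. The replicative helicase gene *MCM5* (MLOC_10314, 1.54 ± 0.42) was the only call among 11 cell cycle genes. No ethylene gene of 4 was called (1 at an unadjusted *P* under 0.05, and 0 by DESeq2), and none of 4 circadian clock genes (3 at an unadjusted *P* under 0.05, all with a negative log2FC, and 0 by DESeq2).

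**Figure D4:**
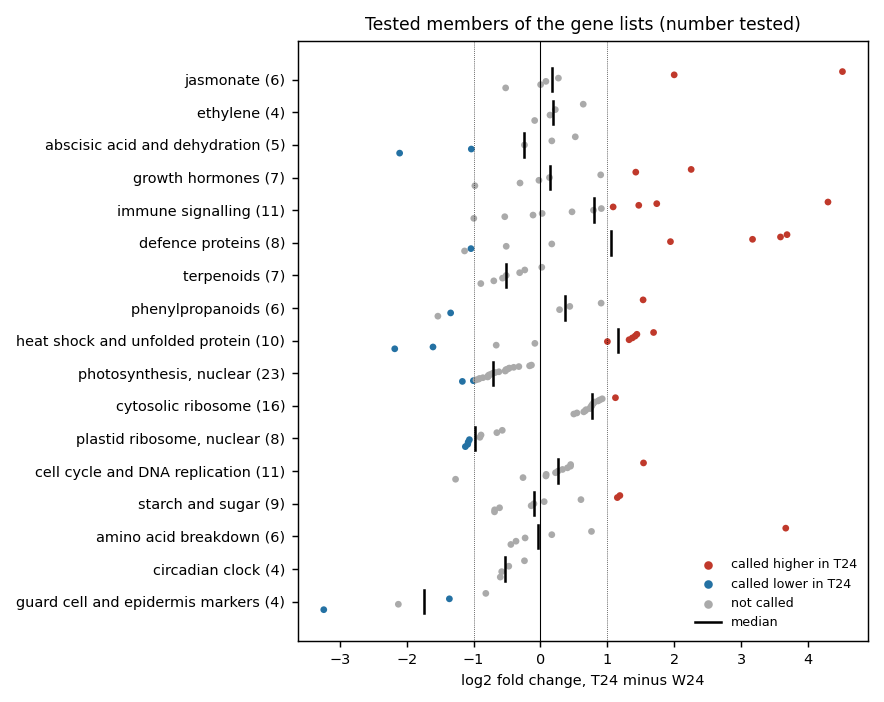
Log2 fold change of T24 minus W24 (x axis) for each tested member of 17 gene lists (rows, number tested in brackets), with called members in red or blue, the list median as a black bar and dotted lines at 1 and -1. The cytosolic ribosome list lies wholly right of 0 (median 0.76), and the photosynthesis and plastid ribosome lists lie wholly left of it (medians -0.71 and -0.98).

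The largest differences of all were in loci without a counterpart in the match table. MLOC_60765 had 424, 366, 566 and 387 CPM in T24 (31710 reads) and 2 reads in the W24 libraries together, a depth-scaled ratio of 22021 with a 95% counting interval from 6096 to 181843. In O24 it averaged 8.65 ± 5.99 CPM (SD, n = 4), and in C it had 2 reads. MLOC_24654 had 19.3, 49.9, 173 and 67.6 CPM in T24, and 1 read in W24. In the other direction, MLOC_64966 had no read in T24, against 2.88, 4.15, 5.28 and 4.24 CPM in W24 and no read in C, at least 102-fold lower in T24 when T24 is set at 3 reads over the group. MLOC_71749 had 1 read in T24, against 1.56, 3.05, 6.44 and 1.85 CPM in W24 and no read in C. Across the whole table, 9 genes had no read in any W24 library and at least 10 in every T24 library, and 2 genes had the reverse. Of those 9, 5 had at least 10 reads in every O24 library, and none had a read in C.

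The libraries that the comparison did not use allowed the same genes to be read in independent leaves. In leaves fed on by the specialist for 24 h, set against controls (O24 against C), 1362 of the 1502 genes higher in T24 than W24 (90.7%) were called higher and 2 lower, against 20.0% and 15.6% of all tested genes, with a median log2FC of 3.33. Of the 1502, 315 had a mean under 0.1 CPM in C and could pass the filter on low counts only through a treated group. O24 was among the groups that the filter used, so for these genes a level above C is partly set by it. Of the 855 genes lower in T24, 547 (64.0%) were called lower there and 87 higher, with a median of -1.64. *BG3* (MLOC_13908) had 157 to 200 CPM in O24, and *CNX1* (MLOC_2075) 1058 to 1121 CPM, both above every T24 library. The reverse held for *AOS* (MLOC_21933), whose mean was 351 CPM in T24 and 195 CPM in O24; neither difference between the mite species was tested.

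At 2 h the same pair of treatments gave a different picture. Between T2 and W2, 425 of the 1502 genes (28.3%) were called lower in mite-fed leaves and 103 (6.86%) higher, against 16.5% and 9.47% of all tested genes, with a median log2FC of -0.37. The 855 genes were divided, with 246 called higher and 251 lower. The balance over all genes depended on scaling here: with upper-quartile factors 14.5% of all tested genes were higher and 13.6% lower, and 9.19% of the 1502 genes were higher and 24.8% lower. Thus *EP3* (MLOC_13056) had 1.61 to 2.64 CPM in T2 and 6.56 to 18.2 CPM in W2, and *TET8* (MLOC_14959) 14.3 to 23.1 CPM in T2 and 40.4 to 115 CPM in W2, in both cases with wounded leaves higher. *LHCB3* (MLOC_17002) had 3487 to 4137 CPM in T2 and 977 to 1781 CPM in W2. *COR47* (MLOC_14884) was lower under mites at both times, at 229 to 295 CPM in T2 and 2361 to 3446 CPM in W2, as was *MYB112* (MLOC_17928), at 0 to 0.846 CPM in T2 and 11.1 to 33.3 CPM in W2. The density of mites differed between the times (400 and 200 per section), and the change between times was not tested.

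**Figure D5:**
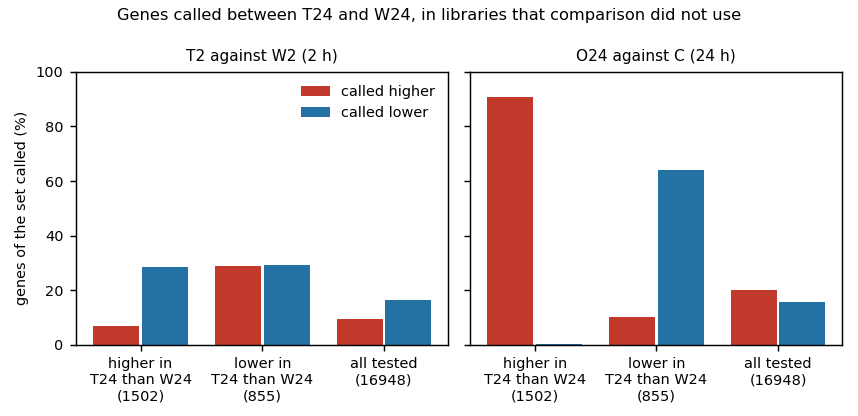
Percent of genes (y axis) called higher (red) or lower (blue) in T2 against W2 (left) and in O24 against C (right), for the 1502 genes higher and the 855 genes lower in T24 than W24 and for all 16948 tested genes. In O24 against C 90.7% of the first set is called higher, and in T2 against W2 28.3% of it is called lower.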

How the data were processed

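Per the study's methods and the labels, poly(A) RNA was sequenced from strand-specific paired-end libraries, with the replicates spread over the lanes; reads were aligned with STAR to the Ensembl barley genome and counted per gene with HTSeq 0.6.0 on the sense strand from unique alignments. The STAR version is 2.5.1b in the submitters' processing notes, and the study's methods name a different patch version. The deposited values are raw read counts per gene, made by the authors, for 25592 loci, none normalized.

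Here edgeR 4.0.16 (R 4.3.3, limma 3.58.1) was fitted to the counts of all 28 libraries with 1 mean per group, TMM factors, and genes kept at a minimum count of 10 by its expression filter (16948 genes). CPM values were divided by total assigned counts. Depth was 13.7 M to 31.4 M counts (M, mega) in the 8 libraries compared. Intervals and the floor of 3 reads cover counting error only. The fit was tested on simulated data. Replicates are separate leaf enclosures.

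The gene lists (19 lists, 228 members) and the genes named were chosen with earlier results of these data known. Of 1998 counterparts held, 1828 were tested. Named genes were, per list, up to 4 called members by smallest *P*; *AOS* and *JAZ1*; 3 terpene synthase loci; and the 8 largest differences each way with a counterpart and 2 each way without, among called genes with non-overlapping values and a mean of at least 1 CPM. Other members are named with list values. Alternatives were DESeq2 1.42.0, other scalings, filters and thresholds, a replicate block, and leaving out each library.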

Additional observations from a re-analysis of the deposited data

Results flagged for a closer look

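A library stood far from the others of its group (by Dixon's criterion for 4 values) in 10 of 100 groups tested. The groups were the totals and the CPM of 49 named genes in T24 and in W24. For independent normal values chance gives about 1 in 20. These values share their libraries, a group with reads in 1 library only is always flagged, and a group without reads never is. The 10 are therefore not read as an excess over chance. T24 replicate 3 had 13.7 M assigned reads, against 20.2 to 20.7 M in the other T24 libraries. T24 replicate 4 was highest for *EP3* (MLOC_13056, 10.8 CPM, others 5.81 to 6.08), *TET8* (MLOC_14959, 202 CPM, others 91.3 to 98.2) and *RPL35AC* (MLOC_23200, 82.3 CPM, others 52.6 to 57.2). In W24, replicate 1 was lowest for *MCM5* (MLOC_10314, 0.468 CPM), replicate 3 highest for *bZIP60* (MLOC_22013, 36.5 CPM) and replicate 2 lowest for MLOC_21153 (17.3 CPM). The other cases are single libraries with 1 or 2 reads where the rest had none: MLOC_71749 in T24 replicate 2 (0.0484 CPM), MLOC_60765 in W24 replicate 4 (0.0638 CPM) and MLOC_24654 in W24 replicate 3 (0.0463 CPM).

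For 14 of the 49 named genes, every mite-fed library lay on one side of every wounded library at 24 h and on the other side at 2 h; this difference between times was not tested. For 9 named genes the direction was the same at both times without overlap. Of all 16948 tested genes, 20.5% lay on opposite sides without overlap and 6.52% on the same side, in CPM scaled by library totals alone. At 24 h alone, 29.9% (higher) and 16.6% (lower) of all tested genes did not overlap, whereas the named genes were mostly chosen as called there. The counts of 14 and 9 therefore cannot be read as an excess over the shares of all genes. Higher at 24 h and lower at 2 h in mite-fed leaves were *EP3* (MLOC_13056; log2FC 3.69 at 24 h and -2.85 at 2 h), *BG3* (MLOC_13908; 3.59 and -2.28), MLOC_20016 (3.54 and -1.73), *TET8* (MLOC_14959; 1.74 and -2.34), *CNX1* (MLOC_2075; 1.69 and -1.40), *MCM5* (MLOC_10314; 1.54 and -1.99), *MAPKKK5* (MLOC_20210; 1.47 and -0.36) and *SDF2* (MLOC_13440; 1.42 and -1.71). Lower at 24 h and higher at 2 h were *LHCB2.3* (MLOC_22471; -1.004 and 1.24), *PRPL34* (MLOC_14202; -1.09 and 0.85), *LHCB3* (MLOC_17002; -1.17 and 1.46), *BGLU46* (MLOC_11508; -1.34 and 1.60), MLOC_21153 (-2.32 and 1.61) and MLOC_18081 (-2.46 and 0.48).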

How the results depend on the processing

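None of the 49 genes named by the selection rule changed sign under any setting that tested it. Other list members given in the text were not followed one by one. In the jasmonate list, 5 members lay above 0 and 1 below, against 4 and 2 with upper-quartile factors. Upper-quartile scaling turned the balance of T2 against W2, at 2455 higher and 2298 lower, against 1605 and 2803 with TMM, and the median of all genes there moved to 0.20. Without T24 replicate 2, 5 of 51 plastid-encoded genes lay above 0, against 29. Over T24 against W24, 1969 to 2473 genes were called when 1 library was left out (1255 to 1547 higher, 714 to 926 lower), the lowest without T24 replicate 4. DESeq2 called 2403, of which 2323 were shared. Removing the fold minimum gave 6530 (3589 higher, 2941 lower), and testing against that minimum (glmTreat) gave 913 (714 higher, 199 lower). At least 5 CPM in at least 4 samples left 489 lower calls, over fewer genes. Without a fold minimum and with glmTreat, T24 against C gave 8416 and 1531 genes, W24 against C 2031 and 463, O24 against C 10892 and 3767, and T2 against W2 9503 and 2096. Leaving out 1 library gave 2848 to 3618 genes for T24 against C, 874 to 992 for W24 against C, 5772 to 6064 for O24 against C and 4106 to 4718 for T2 against W2. The share of calls that were higher was 63.7%. It was 59.6% under upper-quartile scaling and 71.7% when only library totals were used, where the median of all genes shifted to -0.05 and 0.10. Under those scalings, RLE and DESeq2, all tested photosynthesis and plastid ribosome genes stayed below 0 and all cytosolic ribosome genes above it. The study used a randomized block design, and the labels give replicate numbers without saying whether they mark blocks. Deviations of same-numbered T24 and W24 libraries correlated at 0.08, 0.02, -0.05 and 0.20, against -0.36 to 0.19 for other pairs. So few weak correlations cannot decide whether the numbers pair the libraries. A replicate block in the fit gave 2380 calls. The difference in totals was -8.73 M to -5.48 M when 1 library was left out, and the exact permutation *P* was 0.0571 when that was any T24 library. Of the 49 named genes, 28 kept their call in every setting that tested them and 21 lost it in at least 1, all 21 under glmTreat; without T24 replicate 4, 9 lost it.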
